A study of Mus musculus with 26 samples.

Results

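Complement is a set of secreted proteins and cell surface receptors that tag damaged cells and microbes and call in leukocytes. C1q, assembled from the products of C1qa, C1qb and C1qc, binds its target and starts the classical pathway. C4b and C3 carry the cascade on, and factor B (Cfb) amplifies it through the alternative pathway. Fragments of C3 and C5 signal through the receptors C3ar1 and C5ar1, and Serping1 encodes the C1 inhibitor, which blocks the proteases attached to C1q. Tissue macrophages are known as a main source of C1q, whereas C3, C4 and the C1 inhibitor are also made by stromal cells and, in large amounts, by the liver.

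The 9 genes C1qa, C1qb, C1qc, C3, C4b, Cfb, C3ar1, C5ar1 and Serping1 were taken by their symbols, whatever their values, from the 2 deposited expression tables, which list 53465 genes for muscle and 55487 for cultured cells. The muscle table covers the tibialis anterior (TA) of adult C57BL/6 J mice, male by the study's methods, on days 0, 1, 3, 5 and 10 around an injection of CTX (cardiotoxin), a cobra toxin that kills muscle fibres. Saline is named as the control, and whether day 0 muscle was untouched or had received saline is not settled by the sources. The cell table covers C2C12, a mouse myoblast line that fuses into myotubes when serum is reduced. Control cells and cells with a Mettl3 knockdown were sampled while growing (growth medium, GM) and after switching to differentiation medium, on its day 3 (DM3). The knockdown cells were selected as a stable puromycin-resistant line that carries a lentiviral guide against the promoter of Mettl3, an RNA methyltransferase gene, and dCas9-KRAB, a nuclease-dead Cas9 fused to a repressor and driven by the human ubiquitin C promoter. The description deposited with the libraries calls these cells a knockout. Each group has 2 libraries, 10 for muscle and 8 for C2C12, and the labels do not say whether these came from separate animals or cultures, so that p-values may measure technical spread only.

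Values are FPKM, in which the fragments of a gene are divided by transcript length and library size, and can therefore be compared between genes. The values step in whole reads, and by these steps the muscle libraries held 14170000 to 18820000 reads on genes and the C2C12 libraries 14230000 to 29570000. Differences were tested with limma on log2(FPKM + 0.1) for genes that reached 0.5 FPKM in 2 or more libraries, with Benjamini-Hochberg adjustment over all genes tested, and were called where the adjusted p did not exceed 0.05. The log2 fold changes below are on this scale, which understates the change of low genes. The muscle test held 16753 genes and 8 of the 9 complement genes, all but Cfb. The C2C12 test held 13824 genes and 3 complement genes, C3, Cfb and Serping1. Xist, an RNA of female cells, was at 5.77 FPKM or more in 5 muscle libraries, the day 0 pair, the day 10 pair and replicate 2 of day 3, and at 0.152 FPKM or less in the other 5, in which the Y-linked Ddx3y was at 6.10 FPKM or more. Both libraries of days 1 and 5 thus differ from both of day 0 in this respect as well as in time.

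The 3 C1q chain genes lie next to each other on the minus strand of chromosome 4 (GRCm38), C1qb from 136880129 to 136886187, C1qc from 136889804 to 136893065 and C1qa from 136895917 to 136898803. The genes for both receptors, C3ar1 (chromosome 6, 122847138 to 122856161) and C5ar1 (chromosome 7, 16246743 to 16259540), lie apart from them. RefSeq promoter sequences (GRCm38.p6) were matched for C1qb, C1qc, C3ar1, C5ar1 and C3 and not for C1qa, C4b, Cfb and Serping1. The stretches below run upstream of the RefSeq start, are printed 5′ to 3′ on the minus strand because these genes moved together or early in injured muscle, and leave out bases that GENCODE M21 places in an exon. Capitals mark the letters GAGGAA and GAAANNGAA, each read on both strands. GAGGAA occurs in many sites of PU.1, an ETS factor that regulates macrophage genes. GAAANNGAA is an element bound by interferon regulatory factors (IRF).
C1qb, chr4:136886201-136886450: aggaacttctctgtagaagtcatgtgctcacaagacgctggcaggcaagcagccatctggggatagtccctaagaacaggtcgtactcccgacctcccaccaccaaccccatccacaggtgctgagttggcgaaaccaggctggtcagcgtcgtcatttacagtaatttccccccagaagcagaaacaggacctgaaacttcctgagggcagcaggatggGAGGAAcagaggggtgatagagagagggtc
C1qc, chr4:136893066-136893164: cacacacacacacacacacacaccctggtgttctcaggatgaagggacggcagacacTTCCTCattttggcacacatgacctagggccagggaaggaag
C3ar1, chr6:122856162-122856407: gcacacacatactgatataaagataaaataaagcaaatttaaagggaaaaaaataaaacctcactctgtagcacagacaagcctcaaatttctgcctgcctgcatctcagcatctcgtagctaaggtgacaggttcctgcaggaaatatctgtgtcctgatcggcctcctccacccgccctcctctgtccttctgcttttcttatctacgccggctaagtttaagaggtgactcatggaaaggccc
C5ar1, chr7:16259339-16259512: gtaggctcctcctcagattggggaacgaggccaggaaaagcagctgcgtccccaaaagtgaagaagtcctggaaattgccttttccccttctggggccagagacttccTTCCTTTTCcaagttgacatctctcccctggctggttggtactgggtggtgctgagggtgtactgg

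Within 250 bases before the start, GAGGAA was found in C1qb, beginning 30 bases upstream, and in C1qc, beginning 193 bases upstream on the other strand, that is in 2 of the 5 promoters. Of all 32851 mouse promoters of this length, 23.3% held it. The IRF element was found in 1 of the 5, C5ar1, beginning 66 bases upstream, and in 7.13% of all promoters. A STAT element (TTCNNNGAA, in 7.02% of all promoters) and a kappaB element (GGGANTTTC, in 0.941%) were found in 0 of the 5. No 2 of these matches overlap. They describe letters in a window and were tied to no binding data.

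The C1q chains had the highest levels of the 9 genes on day 3, the day of their own highest values. On day 0 the mean of Serping1 (12.8 FPKM) was above those of C1qa (10.1), C1qb (8.01) and C1qc (4.46). On day 10 it was above those of C1qb and C1qc, and on days 1 and 5 above that of C1qc. C1qa stood at 6.87 and 13.3 FPKM on day 0, 17.4 and 24.4 on day 1, 202 and 178 on day 3, 72.2 and 92.4 on day 5, then 14.0 and 35.9 on day 10 (replicates 1 and 2). Both day 3 libraries were above every other library, both day 5 libraries were next, and days 1 and 10 overlapped. C1qb followed the same course, from 4.87 and 11.2 FPKM on day 0 through 15.0 and 27.4 on day 1 to 199 and 181 on day 3, with 62.6 and 84.9 on day 5 and 10.5 and 30.2 on day 10. C1qc was lower throughout, with 2.99 and 5.93 FPKM on day 0, 7.12 and 12.1 on day 1, 102 and 97.3 on day 3, 34.9 and 48.3 on day 5, then 5.20 and 16.5 on day 10. The 2 day 3 values of each chain lay close together, whereas the day 10 values were 2.57 to 3.17 times higher in replicate 2 than in replicate 1.

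**Figure D1:**
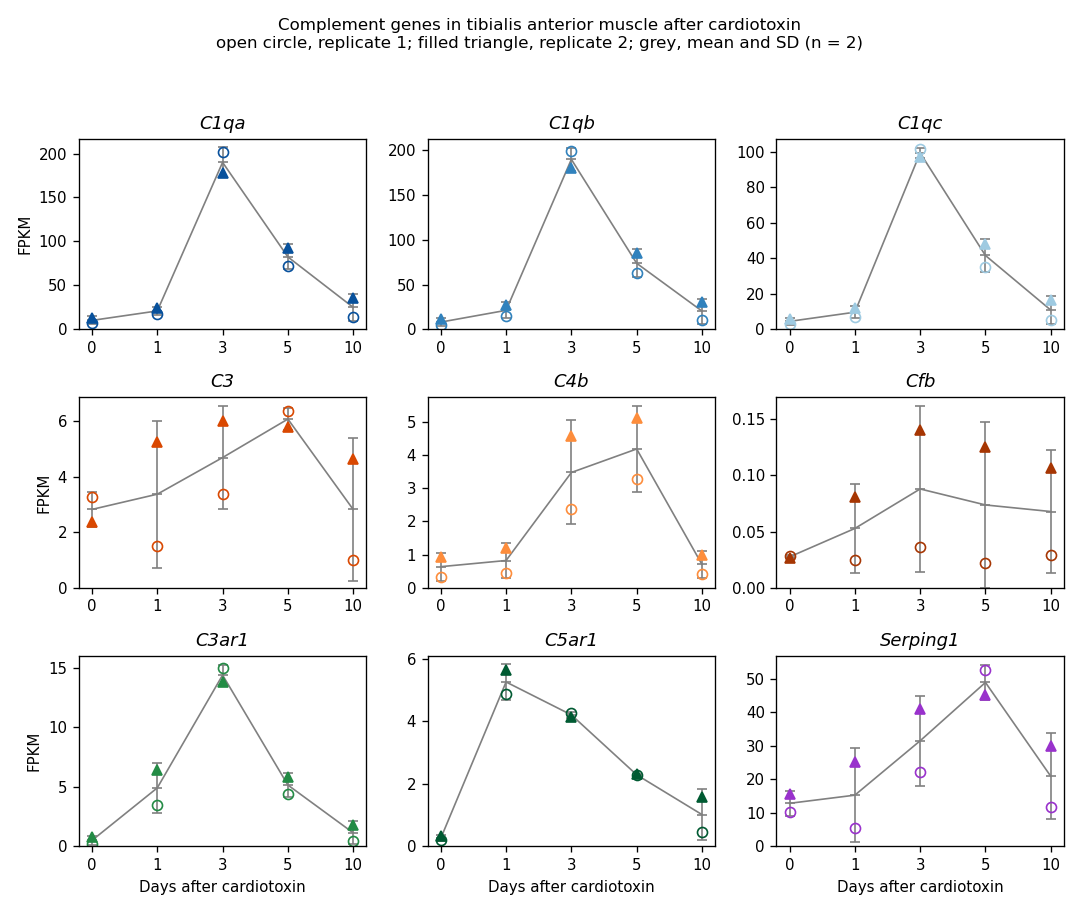
FPKM of the 9 complement genes in TA muscle by day after cardiotoxin, 1 panel per gene with its own linear axis from 0; open circles are replicate 1, filled triangles replicate 2, and grey marks the mean and SD (n = 2). C1qa, C1qb, C1qc and C3ar1 have their highest pair of points on day 3, C5ar1 on day 1, and Cfb stays at or below 0.140 FPKM.

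On day 3 the mean of C1qa was 190 ± 16.9 FPKM (SD, n = 2) against 10.1 ± 4.56 on day 0, a ratio of 18.8, and the ratios were 23.7 for C1qb and 22.3 for C1qc. The log2 fold changes were 4.29 for C1qa (SE 0.46, adjusted p = 0.00048, limma), 4.67 for C1qb (SE 0.56, adjusted p = 0.00068) and 4.53 for C1qc (SE 0.55, adjusted p = 0.00069). All 3 chains were also called from day 1 to day 3, by 3.20 to 3.40, and on day 5 against day 0, by 3.08 to 3.29. They fell by 3.08 to 3.41 from day 3 to day 10, again called for each chain. On day 1 the changes of 1.10 to 1.44 against day 0 were not called (adjusted p = 0.15 to 0.24), nor were those of 1.12 to 1.26 on day 10 (adjusted p = 0.46 to 0.54). The falls of 1.21 to 1.38 from day 3 to day 5 were not called either (adjusted p = 0.13 to 0.17). Without replicate 1 of day 0 or replicate 2 of day 5 the day 5 calls of all 3 chains were lost, with adjusted p of 0.076 to 0.096.

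The proportions of the chains changed far less than their level. C1qb was between 0.709 and 1.12 times C1qa over the 10 libraries, and C1qc between 0.372 and 0.547 times. The C1q protein holds equal numbers of each chain. Over the 10 libraries, which share their day in pairs, the log2 values of the chains had a Pearson r of 0.997 to 0.998 with each other, given as a description without a test.

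Macrophage markers moved with C1q. All 6 markers of the list (Adgre1, Cd68, Csf1r, Mrc1, Lyz2 and Cd14) were called higher on day 3 than on day 0 (24.5% of all genes). They were also called lower on day 10 than on day 3 (18.8% of all genes). Their summed level was 39.0 to 77.2 FPKM on day 0, 296 to 345 on day 1, 1223 to 1228 on day 3, 333 to 356 on day 5 and 50.9 to 213 on day 10. Adgre1, the macrophage surface protein F4/80, was at 0.445 and 1.66 FPKM on day 0, 25.2 and 27.5 on day 3, then 0.730 and 3.44 on day 10, so that replicate 2 of day 10 was also the higher one for this marker. In whole muscle, more cells of a type and more RNA per cell cannot be told apart, and the part of macrophage number in these changes was not tested. Muscle fibre markers ran the other way, with a summed level of 14515 to 18174 FPKM on day 3 against 52430 to 59800 on day 0. Of these markers, 6 of 6 were called lower (24.3% of all genes).

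The C1q sum and the macrophage sum did not keep 1 ratio, however. Together the C1q chains came to 37.8% and 39.4% of the macrophage sum on day 0 and to 13.3% and 18.5% on day 1. On day 3 they came to 41.1% and 37.1%, on day 5 to 51.0% and 63.4%, and by day 10 to 58.3% and 38.7%. Both day 1 libraries were below all 8 others. No test was made of these shares, which rest mostly on Lyz2, the most abundant marker of the sum.

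C5ar1 and C3ar1 encode the receptors for the C5a and C3a fragments. C5ar1 was at 0.187 and 0.321 FPKM on day 0, 4.86 and 5.66 on day 1, 4.28 and 4.14 on day 3, 2.27 and 2.31 on day 5, then 0.445 and 1.58 on day 10. Its 2 day 1 libraries were the highest of all, those of day 3 came next, followed by those of day 5, with no overlap between these days. C3ar1 went from 0.205 and 0.783 FPKM on day 0 to 3.44 and 6.38 on day 1 and 15.0 and 13.8 on day 3, and was at 4.43 and 5.87 on day 5 and 0.455 and 1.80 on day 10. Days 1 and 5 overlapped for C3ar1, as did days 0 and 10.

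On day 1 these receptors were the 2 complement genes called among 8 tested, against 3.53% of all genes called higher. C5ar1 rose by 3.94 on the log2 scale (SE 0.46, adjusted p = 0.015) and C3ar1 by 3.21 (SE 0.66, adjusted p = 0.039). From day 1 to day 3, C3ar1 changed by 1.60 (adjusted p = 0.10) and was not called, nor was C5ar1 (adjusted p = 0.64). C3ar1 was called in this step with a pseudocount of 1 (adjusted p = 0.020) and in a fit of days 1 and 3 alone (adjusted p = 0.032). On day 1 against day 0, C1qa and C1qb had an unadjusted p of 0.047 and 0.034. Whether the receptors differed from the chains in either step was not tested. On day 3 against day 0 the changes were 4.80 for C3ar1 (SE 0.66, adjusted p = 0.0011) and 3.63 for C5ar1 (SE 0.46, adjusted p = 0.00085), and on day 5 they were 3.32 and 2.78, also called. With 1 library left out, the day 5 change of C3ar1 ranged from 2.56 to 4.09 and that of C5ar1 from 2.51 to 3.05. Not every such fit kept these day 5 calls. Both receptors fell from day 3 to day 10, C3ar1 by 3.82 and C5ar1 by 2.17, the latter by 1.35 without replicate 1 of day 10. The 2 calls on day 1 did not hold in a fit of days 0 and 1 alone (adjusted p = 0.13 for C3ar1 and 0.056 for C5ar1), and leaving out replicate 1 of day 0 or of day 1 left 0 of the 8 genes called.

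As a percentage of its own highest day, C5ar1 had reached 100% on day 1 and C3ar1 34.1%, whereas the C1q chains were at 9.68% to 11.1%. Among macrophage markers, Cd68, a lysosomal protein, was at 63.1 and 43.5 FPKM on day 1 and 66.1 and 66.7 on day 3, and Csf1r, the receptor for macrophage colony-stimulating factor, at 7.43 and 9.43 on day 1 and 46.0 and 55.8 on day 3. C5ar1 was 0.654 and 0.600 times Csf1r on day 1 and 0.0742 to 0.261 times in the libraries of days 3, 5 and 10. It was 6.20% to 13.0% of Cd68 over all 10 libraries. Neutrophils also carry C5ar1, and the 6 neutrophil markers had a summed level of 10.1 to 19.2 FPKM on day 1 against 0.694 to 8.34 on all other days. Of the 4 that passed the filter, Csf3r, the receptor for granulocyte colony-stimulating factor, was called for day 1 (3.34, adjusted p = 0.0097) and also for day 3 (4.24, adjusted p = 0.00026). S100a8, S100a9 and Cxcr2 were not called on either day (adjusted p = 0.051 to 0.29 on day 1), and from day 1 to day 3 S100a9 and Cxcr2 fell by 3.15 and 2.52. Ly6g and Retnlg did not pass the filter in muscle. The part of either cell type in the receptor signal was not tested.

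**Figure D2:**
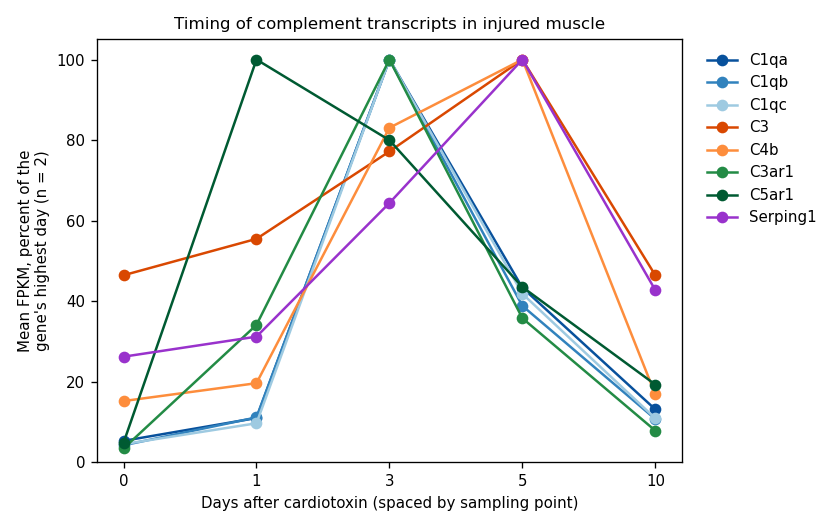
Mean FPKM (n = 2) of 8 complement genes in muscle as a percentage of the gene's highest day, against days after cardiotoxin spaced by sampling point. C5ar1 is at 100% on day 1, the C1q chains and C3ar1 on day 3, and C3, C4b and Serping1 on day 5.

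C4b, the complement C4 gene of the classical pathway, was low and was called higher on days 3 and 5. It stood at 0.338 and 0.934 FPKM on day 0, 0.454 and 1.19 on day 1, 2.37 and 4.58 on day 3, 3.27 and 5.10 on day 5, then 0.416 and 0.993 on day 10. Days 0, 1 and 10 overlapped, and all 4 libraries of days 3 and 5 lay above them. C4b was called on day 3 (2.34 against day 0, SE 0.62, adjusted p = 0.016), on day 5 (2.64, SE 0.62, adjusted p = 0.023) and from day 1 to day 3 (2.01, adjusted p = 0.042), and it fell by 2.18 from day 3 to day 10 (adjusted p = 0.027). The day 3 call against day 0 was lost without replicate 1 of day 0 (adjusted p = 0.099) or replicate 2 of day 3 (adjusted p = 0.10). The day 5 call was lost without replicate 1 of day 0 or either library of day 5 (adjusted p = 0.066 to 0.14), and the day 1 to day 3 call without replicate 1 of day 1 or any library of days 3 and 5 (adjusted p = 0.061 to 0.22). C4b has a near-identical neighbour in the mouse, C4a, and how reads common to both were counted is not stated, so its level is uncertain.

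C3, the protein on which all complement pathways meet, showed no called change in the fit of all muscle libraries. It was at 3.26 and 2.37 FPKM on day 0, 1.49 and 5.24 on day 1, 3.37 and 6.0 on day 3, 6.35 and 5.79 on day 5, then 1.00 and 4.63 on day 10. The 2 replicates of days 1 and 10 spanned most of the range of the time course, and 0 of the 7 comparisons were called. The largest change against day 0 was 1.10 on day 5 (SE 0.75, adjusted p = 0.31). C3 (chromosome 17, 57203970 to 57228136) was called on day 5 when only days 0 and 5 were fitted (adjusted p = 0.033). C3 mRNA was not detectably higher on day 3, when the mRNA of its receptor C3ar1 was at its highest.

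Factor B was barely detected. Cfb (chromosome 17, 34856374 to 34862518) was between 0.0217 and 0.140 FPKM in all 10 muscle libraries, or 1 to 8 reads each. GENCODE M21 places 79.5% of its 2825 exon bases also in Gm20547 on the same strand, which is listed at 0 in every library of both tables. If reads common to both genes were discarded, Cfb is undercounted here, and the sources used here do not give the counting options.

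Serping1 (chromosome 2, 84765387 to 84775444) was the most abundant of the genes besides C1q and had its highest pair of libraries on day 5. Its values were 10.2 and 15.5 FPKM on day 0, 5.32 and 25.2 on day 1, 22.1 and 41.0 on day 3, 52.8 and 45.2 on day 5, then 11.8 and 30.0 on day 10. Day 5 was above all other days, day 3 was above day 0, day 1 spanned the values of day 0, and day 10 overlapped them. The change on day 5 against day 0 was 1.95 (SE 0.73, adjusted p = 0.085) and missed the threshold. It passed in the fit of days 0 and 5 alone (adjusted p = 0.028) and without either library of day 1 (adjusted p = 0.031 for each). On day 3 the change was 1.25 (adjusted p = 0.19).

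The fibroblast markers, taken as a sum, were highest on day 5, as Serping1 was. Dcn, a collagen-binding proteoglycan, was at 6.60 and 34.0 FPKM on day 1, 25.8 and 46.4 on day 3, then 74.0 and 65.3 on day 5, so that the replicates differed in the same direction for both genes on each of these days. Serping1 was 52.0% to 88.3% of Dcn over the 10 libraries, and the Pearson r of their log2 values was 0.975, as a description. The summed level of the 6 fibroblast markers was 85.0 to 202 FPKM on day 0, 83.6 to 211 on day 1, 679 to 768 on day 3, 831 to 947 on day 5 and 170 to 414 on day 10. Of the 6, 3 were called higher on day 3 (24.5% of all genes) and 4 on day 5 (12.9%) against day 0. Dcn itself was called on neither day (adjusted p = 0.35 and 0.085, limma). Ly6a, also not called, changed by 0.60 and 0.61, and Col1a1 by 3.64 and 3.56. The markers therefore did not share 1 course. Hepatocyte markers summed to at most 0.0966 FPKM in any muscle library. The part of fibroblast number in Serping1, C3 and C4b was not tested.

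**Figure D3:**
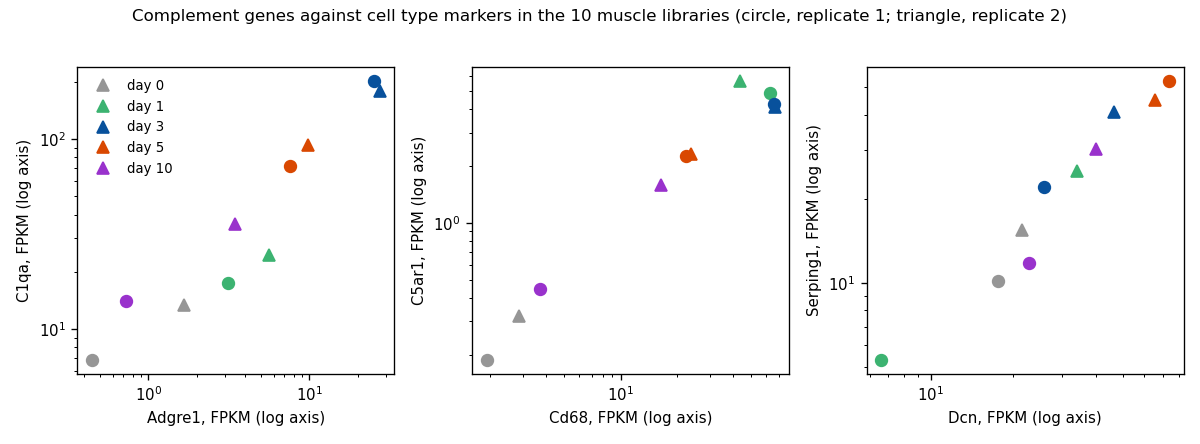
FPKM of C1qa against Adgre1, C5ar1 against Cd68 and Serping1 against Dcn in the 10 muscle libraries, on log axes; colours are days, circles replicate 1 and triangles replicate 2. C1qa is highest on day 3 at 202 and 178 FPKM, the day 1 and day 3 libraries share the right end of the Cd68 panel, and the lowest Serping1 value, 5.32 FPKM on day 1, lies at the lowest Dcn value, 6.60 FPKM.

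By comparison, 6 of the 8 genes tested (C1qa, C1qb, C1qc, C3ar1, C4b and C5ar1) were called higher on day 3 than on day 0, where 24.5% of all genes were. All 6 also passed the study's added threshold of 2 on the log2 scale, which 9.46% of all genes did. The same 6 were called on day 5 against day 0 (12.9% of all genes), and 4 of the 8, the C1q chains and C4b, from day 1 to day 3 (14.5%). The 6 were called lower on day 10 than on day 3, as were 18.8% of all genes. From day 3 to day 5, 0 of the 8 were called by limma against 12.7% of all genes in either direction, and 3, the C1q chains, had an unadjusted p under 0.05 (29.4% of all genes). Between days 0 and 10, 0 of the 8 were called against 0.00597% of all genes, and C1qa and C5ar1 had an unadjusted p under 0.05 (10.1% of all genes). The median log2 fold change of the 8 was 1.11 for day 1, 3.96 for day 3, 2.93 for day 5 and 1.05 for day 10, beside 0.0075 over all genes tested on day 3 and less than that on the other days.

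**Figure D4:**
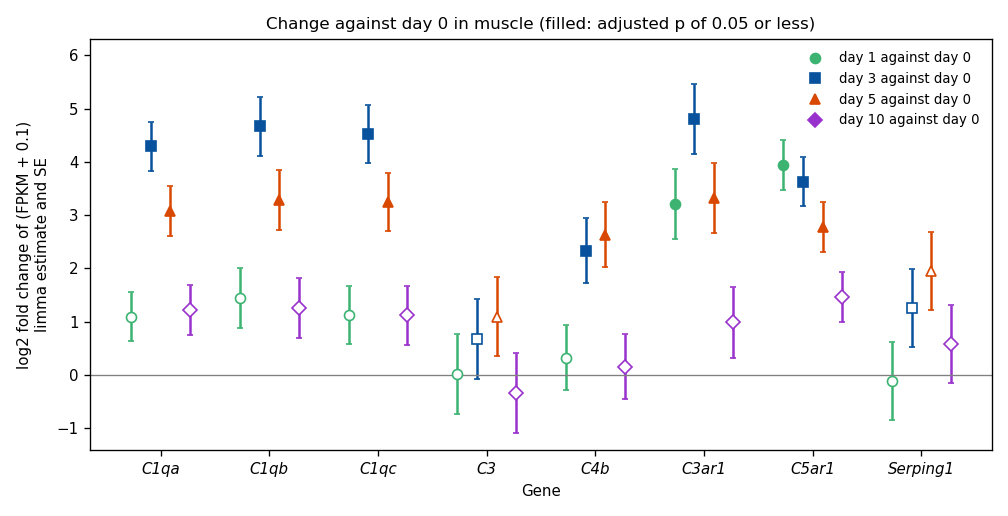
Log2 fold change of FPKM + 0.1 against day 0, with the standard error from limma, for the 8 complement genes tested in muscle; filled symbols have an adjusted p of 0.05 or less. C3ar1 and C5ar1 are filled on day 1, 6 genes are filled on days 3 and 5, and no symbol is filled for day 10, C3 or Serping1.

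With a term in the fit for libraries that express Xist, the 6 calls on day 3 against day 0 were kept and 0 of the 8 genes were called on day 1 or on day 5. The calls of C4b from day 1 to day 3 (adjusted p = 0.22) and of C4b and C5ar1 from day 3 to day 10 (adjusted p = 0.051 and 0.052) were lost as well. Days 1 and 5 hold Xist-low libraries only and day 0 Xist-high ones only, so in this fit their comparison rests on day 3, the day with 1 library of each kind. On that day the Xist-high library was the higher one for C3, C4b, Cfb and Serping1 and the lower one for the C1q chains, C3ar1 and C5ar1.

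The other complement genes moved in both directions. Of 49 further genes on the lists, 24 were tested in muscle. On day 3 against day 0, 7 of these were called higher and 4 lower, where 24.5% and 24.3% of all genes were, and their median log2 fold change was 0.19. Among receptors, 4 of 7 were called higher (24.5% of all genes), namely C5ar2, the second C5a receptor (2.76), and the integrin chains of complement receptors 3 and 4, Itgam (2.94), Itgax (3.71) and Itgb2 (3.60). Among the alternative pathway genes, properdin (Cfp), which stabilises the C3 convertase, rose from 2.96 and 4.10 FPKM on day 0 to 9.37 and 12.2 on day 1 and 15.5 and 19.2 on day 3, called on both days. Of 4 tested lectin pathway genes, the scavenger collectin Colec12 (2.04) and the ficolin Fcna (1.69, under 1 FPKM and named after its values were seen) rose and the protease Masp1 (-1.84) fell.

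Of the 6 tested genes that hold complement back, 0 were called higher and 2 lower on day 3 against day 0. Of all genes, 24.5% were called higher and 24.3% lower. Cd59a, a membrane protein that blocks the terminal pore, fell from 14.6 and 14.5 FPKM on day 0 to 4.90 and 4.01 on day 3 (-1.69, adjusted p = 0.0013), and Cd46 (-1.56) fell as well. Cd55, which takes convertases apart, was at 8.23 and 5.33 FPKM on day 3, rose to 14.7 and 25.6 on day 5 and was 15.4 and 18.6 on day 10. Clusterin (Clu), a secreted chaperone that binds terminal complexes, was at 13.5 and 10.9 FPKM on day 0, 73.3 and 83.4 on day 1, then 10.7 and 10.6 on day 3, and was called in both steps (2.68, then -2.87). The C1q proteases C1ra and C1s1, whose activity Serping1 blocks, were called higher on day 5 only among the days set against day 0 (1.82 and 1.74). On day 5, 12.9% of all genes were called higher. C1s1 was at 27.4 and 30.1 FPKM on that day against 7.47 and 9.72 on day 0, and both proteases have close copies in the mouse (C1rb and C1s2), so their levels are uncertain. Of the 7 terminal pathway genes, C8g alone passed the filter.

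For each gene tested in muscle, the 3 other genes with the most similar course over the 10 libraries were found by the Pearson r of log2(FPKM + 0.1). These libraries share their days and their scaling, so r is given as a description. For C1qa they were Apoe (0.996), Ikbip (0.995) and Kdelr3 (0.995), for C1qb Ms4a7 (0.996), Plxnb2 (0.994) and Ikbip (0.991), and for C1qc Apoe (0.996), Farp1 (0.993) and Slamf7 (0.991). Those of C3ar1 were Ptpn6 (0.995), Ptafr (0.992) and Iqgap1 (0.991), and those of C5ar1 were Cd68 (0.987), Rab7b (0.980) and Cd44 (0.979). C4b was nearest to Arsb (0.976), App (0.975) and Cxcl9 (0.973), and Serping1 to Ccdc3 (0.980), Gm26776 (0.978) and Lbp (0.976). C3 had the least similar neighbours, Myo1d (0.942), Podn (0.916) and Gm17276 (0.913). Among the complement genes themselves, C3ar1 and C5ar1 had an r of 0.917, C4b and Serping1 0.873, and C5ar1 and Serping1 0.322.

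In C2C12 cells, which are myoblasts grown without leukocytes, the picture was different. C1qa, C1qb and C1qc had 0 reads in all 8 libraries, and C5ar1 had 1 read in 1 library. A count of 0 allows up to 3 reads, or 0.0907 to 0.299 FPKM for C1qa, 0.0867 to 0.286 for C1qb and 0.0489 to 0.161 for C1qc, depending on the library, for counting error only. Adgre1 was at 0 in all 8 libraries too. C3ar1 was at 0.0837 to 0.225 FPKM, 5 to 27 reads per library. Of the 6 macrophage markers, Cd14, Cd68 and Lyz2 were tested, and the sum of all 6 was 8.34 to 25.9 FPKM over the libraries. Levels are not compared across the tables, which were scaled separately.

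The knockdown lowered Mettl3 from 4.70 and 5.65 FPKM in control GM to 0.331 and 0.118, and from 4.68 and 5.15 to 0.148 and 0.0805 on DM3. On DM3 the C2C12 control cells had the muscle genes Acta1 at 414 and 362 FPKM and Myog at 89.1 and 83.3, whereas the knockdown cells had 10.3 and 7.89, and 3.50 and 2.28. Neither difference was called (adjusted p = 0.16 and 0.20, limma). Of 5 tested muscle fibre markers, 1 was called lower, Ckm (-5.14, adjusted p = 0.021, limma). Of 3 tested myoblast markers, 1 was called lower, Myod1 (-2.80, adjusted p = 0.034, limma). Of all genes, 1.98% were called in either direction. For its knockdown cells on this day, the study reports more fusion by staining and higher fusion gene mRNA by RT-qPCR. It also reports more myosin heavy chain protein in its knockdown cells by immunoblot. The lower Acta1 and Myog of these libraries differ from that report, and the reason was not tested.

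C3 had the highest mean of the 9 genes in each group of C2C12 cells, and its GM replicates lay far apart. In GM it was at 43.6 FPKM (7126 reads) in replicate 1 and 0.0805 (4 reads) in replicate 2 of the control cells, and at 33.5 (5432 reads) and 0.445 (42 reads) in the knockdown cells. On DM3 it was at 5.59 and 3.85 FPKM in the control and 61.4 and 13.7 in the knockdown cells. Replicate 1 was the higher one in each of the 4 groups, and in replicate 2 of both GM groups Serping1 was above C3. From GM to DM3, C3 fell in replicate 1 of the control cells and rose in replicate 2. Acta1 also parted the GM replicates, at 106 and 9.24 FPKM in the control cells.

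On DM3 both knockdown libraries were above both control libraries for each of the 3 tested complement genes. Of the tested ones, C3 was as given above, Cfb was at 1.21 and 1.01 FPKM in the knockdown against 0.426 and 0.255 in the control, and Serping1 at 0.972 and 1.46 against 0.314 and 0.233. Below the filter, C4b was at 0.309 and 0.251 FPKM (49 and 21 reads) against 0.00640 and 0 (1 and 0 reads), and C3ar1 at 0.225 and 0.190 against 0.110 and 0.0837. C4b was detected on DM3 almost only through its knockdown libraries, so its order was fixed by that. Among all genes tested, which leave out C4b and C3ar1, 29.3% had both knockdown libraries above both control libraries on DM3. The macrophage marker sum was also higher in these libraries, 20.6 to 24.7 FPKM against 8.34 to 9.38, with Cd14 called (1.17, adjusted p = 0.037) and Lyz2 not (1.96, adjusted p = 0.28), while Adgre1 was at 0. The part of these markers in the complement values was not tested.

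With limma, 0 of the 3 tested genes were called on DM3 against 1.98% of all genes in either direction, and Serping1 had an unadjusted p under 0.05, as did 17.6% of all genes. The log2 fold changes were 1.80 for Serping1 (SE 0.74, adjusted p = 0.28), 1.48 for Cfb (SE 0.92, adjusted p = 0.51) and 2.62 for C3 (SE 2.86, adjusted p = 0.74). The GM libraries, whose replicates differed as given above for C3, share the estimate of the spread. When the 4 DM3 libraries were fitted alone, Serping1 (adjusted p = 0.020) and Cfb (adjusted p = 0.031) were called, C3 was not (adjusted p = 0.058), and 2828 genes were called in all.

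In GM, 0 of the 3 genes were called between knockdown and control cells (0.0% of all genes), and 0 had an unadjusted p under 0.05 (9.0% of all genes). Serping1 was at 2.86 and 1.48 FPKM in the knockdown against 1.77 and 0.312 in the control, so the groups overlapped. The effect of the knockdown was not shown to differ between DM3 and GM for any of the 3 (0 called against 0.0% of all genes, and 0 with an unadjusted p under 0.05 against 8.67%), and for C3 the difference was 2.01 with an SE of 4.04 (adjusted p = 0.91). From GM to DM3, 0 of the 3 were called in control cells (1.14% of all genes) or in knockdown cells (0.0289%), and 0 had an unadjusted p under 0.05 in either (18.2% and 12.6% of all genes). With the replicate number as a block, 0 of the 3 genes were called in any of these comparisons, while the genes called in all went from 274 to 505 for the knockdown on DM3, from 158 to 411 for GM to DM3 in control cells and from 4 to 9 in knockdown cells.

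**Figure D5:**
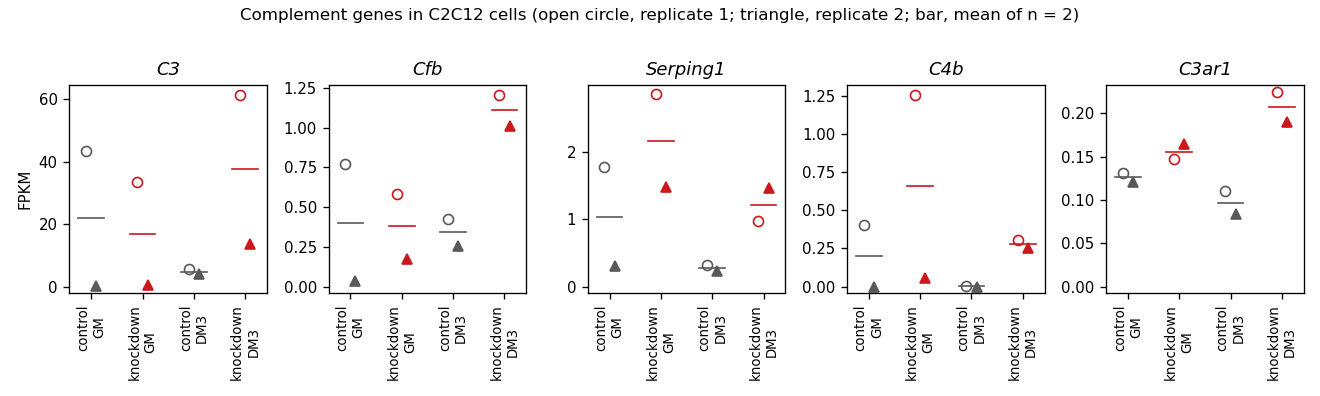
FPKM of the 5 complement genes detected on DM3 in C2C12 cells, control in grey and Mettl3 knockdown in red, in GM and on DM3; open circles are replicate 1, triangles replicate 2 and bars the mean (n = 2), each panel with its own linear axis. On DM3 both knockdown points lie above both control points in every panel, and the GM points of C3 lie at 43.6 and 0.0805 FPKM in the control. C4b and C3ar1 were below the filter and not tested.

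Of the 49 other complement genes, 16 were tested in C2C12 and 0 were called between knockdown and control cells on DM3 (1.98% of all genes), with 5 at an unadjusted p under 0.05 (17.6% of all genes) and a median log2 fold change of 0.40 beside -0.05 over all genes. Several were abundant in these cells. C1s1 ranged from 78.6 to 266 FPKM and C1ra from 35.4 to 69.9 over the 8 libraries. Clu was at 11.8 and 13.5 FPKM in the knockdown on DM3 against 0.361 and 0.454 in the control (4.66, adjusted p = 0.13), Masp1 at 106 and 103 against 37.4 and 34.9 (1.53, adjusted p = 0.27), and Cd59a at 13.1 and 12.8 against 4.29 and 4.01 (1.62, adjusted p = 0.061). For these 3 genes both knockdown libraries were above both control libraries, as for 29.3% of all genes.

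Among 10 tested interferon-induced genes, 2 were called between knockdown and control cells on DM3 (1.98% of all genes in either direction). Ifit1, an interferon-induced protein that binds viral RNA, was at 112 and 98.4 FPKM against 0.645 and 1.36 in the control (6.66, adjusted p = 0.043), and Bst2, an antiviral membrane protein, at 97.7 and 115 against 4.28 and 7.58 (4.20, adjusted p = 0.049). Of the 10, 8 had an unadjusted p under 0.05 (17.6% of all genes), and the median of the list was 3.92. Irf1, an interferon-induced transcription factor, lay the other way, at 12.4 and 11.6 FPKM in the knockdown against 14.9 and 16.2 in the control (-0.37, adjusted p = 0.46). In muscle all 11 genes of the list were tested and called higher on day 3 than on day 0 (24.5% of all genes), with a median of 1.97. The part of these genes, or of the lower muscle genes, in the complement values was not tested.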

How the data were processed

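RNA-seq libraries of regenerating TA muscle (10) and of C2C12 cells with or without Mettl3 knockdown (8) were used, grouped by their labels. The deposited FPKM values were made by the authors with the fpkm function of DESeq2, from featureCounts gene counts of HISAT2 alignments to GRCm38. Each table was scaled separately, so that comparisons stay within a table. Whether strand was used in counting is not given in the sources used here. The 9 genes, the gene lists and the tests were chosen with earlier results of these data known.

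FPKM plus 0.1 was taken to the log2 scale, and all groups of a table were fitted together with limma 3.58.1 (lmFit, eBayes with trend) in R 4.3.3 over genes that reached 0.5 FPKM in 2 or more libraries, with Benjamini-Hochberg adjustment. An exact permutation test of 2 libraries against 2 could not pass the threshold. Named are the 9 genes, listed complement genes whose mean reached 1 FPKM in a group, the 3 nearest genes by Pearson r, the markers, and Mettl3. Exon lengths of GENCODE M21 turned FPKM into reads, and 96.5% to 98.7% of values under 20 reads were within 0.02 of a whole read. On simulated data with 200 genes changed by 4 on the log2 scale, the fit called 176 (day 3 against day 0, with 13 unchanged genes called) and 161 (knockdown on DM3, with 14). The simulated libraries varied independently of each other. These counts therefore do not tell how often smaller changes are found, or how the fit behaves where libraries deviate together.

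Same-numbered C2C12 libraries deviated together (6 correlations of 0.278 to 0.680), so that the numbers pair them by this measure, for which the sources give no reason. Alternative fits used pseudocounts of 1 and 0.01, no filter, a filter at 1 FPKM, median-ratio and quantile scaling, the groups compared alone, the replicate block, an Xist term in muscle, an added fold threshold and each library left out. Python 3.11.15, pandas 2.3.3, numpy 2.4.6 and matplotlib 3.10.9 were used. The Mettl3 overexpression libraries were not analysed here.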

Additional observations from a re-analysis of the deposited data

How the results depend on the processing

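Of 50 gene comparisons followed (24 called, 26 with a change of at least 1 on the log2 scale and no call), 13 were called under every setting that kept all libraries. None changed direction under those settings. Called complement genes on day 1 against day 0 numbered 1 with no filter, 0 with the Xist term and 0 with only the groups compared, and on day 5 against day 0 they numbered 0 with the Xist term. From day 3 to day 5 there was 1 with a pseudocount of 1 and 5 with only the groups compared, and for the knockdown on DM3 2 with only the groups compared. Of single calls, C3ar1 on day 1 was lost with no filter (adjusted p = 0.076), C4b from day 1 to day 3 with no filter, a pseudocount of 0.01, the Xist term and only the groups compared (adjusted p = 0.054 to 0.22), C4b from day 3 to day 10 with no filter and the Xist term (adjusted p = 0.054 and 0.051), and C5ar1 there with the Xist term (adjusted p = 0.052). Gained were C3ar1 from day 1 to day 3 with a pseudocount of 1 and only the groups compared, and Serping1 on day 3 with only the groups compared (adjusted p = 0.049). With 1 library left out, the counts ranged from 0 to 2 (day 1 against day 0), 5 to 6 (day 3 against day 0), 0 to 7 (day 5 against day 0), 3 to 5 (day 3 against day 1), 0 to 1 (day 5 against day 3) and 5 to 6 (day 10 against day 3), and were 0 in the other 6 comparisons. The log2 fold change of C3 from day 3 to day 10 ranged from -2.06 to 0.0413 (the latter without replicate 1 of day 10), that from GM to DM3 in knockdown cells from -0.20 (without replicate 2 of knockdown GM) to 5.74, and its difference of knockdown effects from -1.95 (without replicate 1 of control GM; also below 0 without replicate 2 of knockdown GM, -0.96) to 5.97. For Cfb that difference ranged from -0.18 (without replicate 1 of control GM) to 2.49. The causes were not tested. The replicate block left the C2C12 counts at 0 in all 5 comparisons. Muscle replicate numbers share only a number (10 correlations of -0.019 to 0.211), and the block there called 7 genes on day 5, with Serping1 added (adjusted p = 0.033), and 5 from day 1 to day 3, with C3ar1 added (adjusted p = 0.035). Quantile normalization moved the median of all genes on day 3 against day 0 to -0.12 and changed no call of a complement gene. A fit of the groups compared alone gives no value for the difference of knockdown effects. Low counts limit the precision of C4b, C5ar1 and Cfb, with as few as 24, 6 and 1 reads in a muscle library.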
